A study of Cricetulus griseus with 8 samples.

Results

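The mRNA of Chinese hamster ovary (CHO) cells that expressed RNG140-GFP was compared with the mRNA of control CHO cells, with 2 RNA-seq libraries per group. The 4 libraries were taken by their titles from the 8 of the series. The other 4 are ribosome footprint libraries and were used here only to sort transcripts by the footprints counted on them. CHO is an established epithelial-like cell line from hamster ovary, shared by both groups. The labels give the genetic background of the first group as RNG140-GFP-expressing and that of the controls as WT. Whether the fusion was expressed stably or transiently, whether the cells were a clone, and whether controls carried GFP is not given in the sources used here. No label says that the libraries came from separate cultures, so p-values measure the spread between these libraries, which may be technical.

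RNG140 (caprin2) binds RNA, gathers mRNAs in granules of the cytoplasm and is best known from neurons. It is related to caprin1 (RNG105), a component of stress granules and of dendritic RNA granules. The level of an mRNA is set by its synthesis and its decay, and RNA-binding proteins can act on decay as well as on translation. RNA-seq of a whole culture gives the share of each transcript in the RNA pool. It cannot tell fewer cells with a transcript from less of it per cell.

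Gene names could not be attached: the files hold transcript identifiers alone, and 0 of them matched an entry of the reference gene table. The cell line label and the RNG140 mRNA could therefore not be checked, and transcripts are described by their listed length. That length is a whole number in an unstated unit, read here as a coding length. Of 34490 listed identifiers, 7505 had no length and no RNA count. Of the 26985 with a length, 6306 had no count in the 4 RNA libraries and 3806 fell below the filter on low counts, with a median of 4 counts over the 4 libraries. The remaining 16873 transcripts were tested and held over 99.97% of the counts of each library. Library totals ranged from 22849263 to 35875108 counts.

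RNA levels changed for most transcripts, and most changes were small. In all, 10090 of 16873 transcripts were called (59.8%), 5100 higher (30.2%) and 4990 lower (29.6%) in RNG140-GFP cells (edgeR quasi-likelihood test on the 4 RNA libraries, Benjamini-Hochberg adjusted p under 0.05). The median size of a called change was 0.46 on the log2 scale, and the median standard error was 0.087. A change over 2-fold was called for 590 that rose and 609 that fell, together 7.11% of those tested. Against a minimum change of 1.5-fold, 1697 (10.1%) passed, 771 higher and 926 lower. DESeq2 passed 869 in that test.

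The spread between groups exceeded the spread within them. In log2 ratios of single libraries, CPM (counts scaled to library size) differed over 2-fold between RNG140-GFP and control for 7.24% to 8.35% of the transcripts in the 4 possible pairs of libraries. Between libraries of the same group, this held for 0.676% to 0.942%. The CPM values of the groups did not overlap for 6712 transcripts that were higher and 6676 that were lower in RNG140-GFP cells, together 79.3%. With 2 libraries per group, unchanged transcripts also often fail to overlap by chance.

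The size of the change depended on the expression level. Transcripts were divided into 5 equal classes by mean CPM per 1000 units of listed length over the 4 libraries. In the lowest class, with levels of 0.0796 to 15 on that scale, a call over 2-fold was made for 675 of 3374 transcripts (20%, beside 7.11% of all tested). The share fell in each higher class, to 5.81%, 4.74%, 2.84% and, in the highest class, 2.13%, or 72 of 3375. The lowest class was measured least precisely, with a median standard error of 0.23 against 0.059 in the highest. Its replicates also spread more: libraries of the same group differed over 2-fold for 3.26% to 4.51% of its transcripts, and libraries of different groups for 21.1% to 23.4%. In the highest class these shares were 0 within groups and 1.9% to 2.9% between groups. Beyond the minimum of 1.5-fold, 15.2% of the lowest class passed, and between 8.57% and 9.19% of each of the others.

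The share called at any size ran the other way, from 42.7% in the lowest class to 72.4% in the highest. The balance of directions also differed between classes. In the middle class 1196 transcripts rose (35.4%) and 887 fell (26.3%), whereas in the highest class 1067 rose (31.6%) and 1377 fell (40.8%). Of all tested transcripts, 30.2% rose and 29.6% fell. The median change was -0.01 in the lowest class, 0.04 in the next 2 classes, 0.00 in the fourth and -0.05 in the highest, all on the log2 scale. The difference between the highest and the lowest class was -0.04, within the spread of the libraries. Measured in each library, this difference was -0.02 and 0.03 in controls against -0.05 and 0.01 with RNG140-GFP (exact permutation test over libraries, two-sided p = 0.667). It changed sign without RNG140-GFP replicate 1, to 0.02, and without the filter on low counts, to 0.04. With 2 libraries per group the smallest p that this test allows is 0.333.

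**Figure D1:**
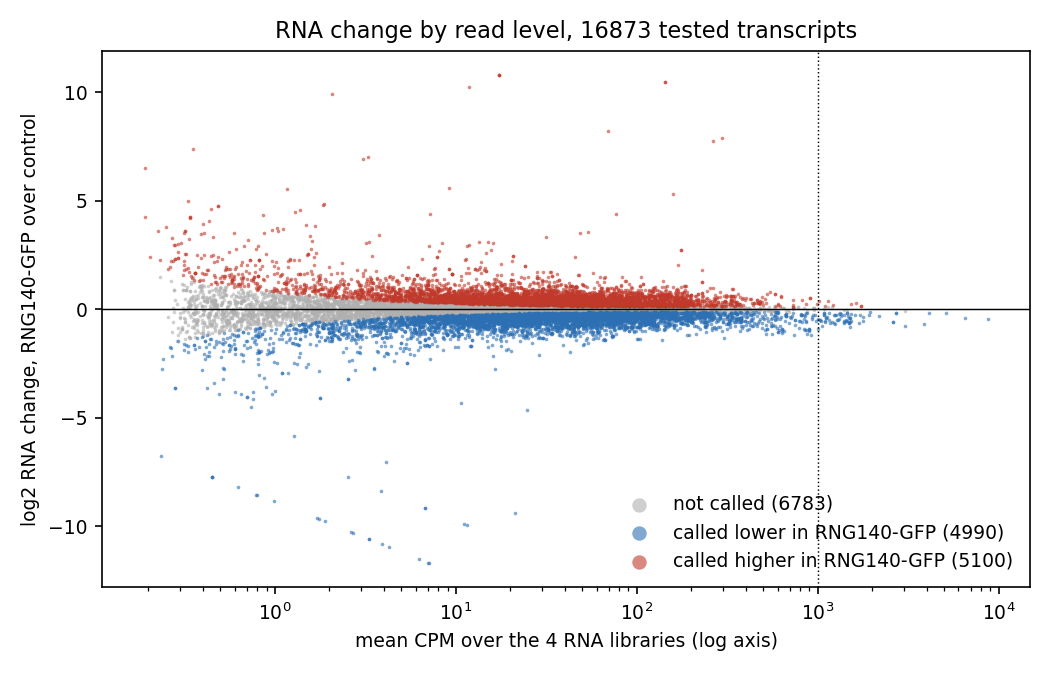
Log2 RNA change (RNG140-GFP over control) of each tested transcript against its mean CPM over the 4 RNA libraries on a log axis, colored by the edgeR call. Of the 83 transcripts right of the dotted line at 1000 CPM, 69 were called lower and 8 higher.

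The most abundant transcripts were lower in RNG140-GFP cells. Of 83 transcripts with a mean of at least 1000 CPM, 69 fell (83.1%, beside 29.6% of all tested) and 8 rose (30.2% of all tested rose). Without control replicate 1, control replicate 2 or RNG140-GFP replicate 2, the number that rose was 4, 5 and 5. These counts describe a band chosen after its values were seen. The levels of these transcripts per 1000 units of length lay between 776 and 19240.4, all inside the highest level class. Their median change was -0.38 on the log2 scale, beside 0.00 for all tested transcripts, and 0 of them were called over 2-fold. Together they took 15.4% and 15.5% of the counts in the control libraries and 13% and 12.8% in the RNG140-GFP libraries. The groups do not overlap (exact permutation p = 0.333, the smallest possible).

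The most abundant transcript, by CPM and per listed length, had a listed length of 452. It held 9819 and 10370.4 CPM in controls against 7144 and 7453 CPM with RNG140-GFP. It fell by 0.47 ± 0.049 (SE) on the log2 scale, and both RNG140-GFP libraries lay below both controls. A transcript of listed length 293 went from 4746 and 4706 CPM to 2960 and 3009 CPM, with a decrease in both libraries to a similar level. It fell by 0.66 ± 0.048 (SE). A transcript of listed length 575 went from 3821 and 3930 CPM to 2251 and 2233 CPM, a fall by 0.79 ± 0.049 (SE) that also passed the 1.5-fold minimum. Another abundant transcript, of listed length 284, was not called, at 3170 and 3140 CPM in controls and 3006 and 2913 CPM with RNG140-GFP (log2 change -0.09 ± 0.049 SE, edgeR adjusted p = 0.109).

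A group of 9 transcripts in this band had the same listed length of 117 and similar counts, and they may share reads. All 9 fell, by 0.54 to 0.68 on the log2 scale. Their control values lay between 1533 and 2080.3 CPM. The first RNG140-GFP library gave 1027 to 1401 CPM and the second 898 to 1232 CPM, so the latter was the lower of the pair. Without these 9, 60 of the other 74 abundant transcripts fell and 8 rose. Some of the 74 also had neighbours with near-equal counts. With 1 transcript per set that appears to share reads, 60 of 72 abundant transcripts fell (83.3%) and 7 rose. The 72 include the 9 of listed length 117, which formed separate sets. The largest rise in the band was that of a transcript of listed length 1461, from 991 and 982 CPM to 1283 and 1280.3 CPM, a log2 change of 0.38 ± 0.05 (SE). The 100 most abundant transcripts of each library took 17.3% of the counts in both control libraries and 14.7% and 14.5% in RNG140-GFP libraries.

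By listed length, the median RNA change differed by less than 0.1 between classes. Among 5 equal classes of length, it was -0.02 in the shortest (listed lengths 4 to 198), 0.00 and -0.02 in the next 2 classes, 0.02 in the fourth and 0.03 in the longest (805 to 7641), on the log2 scale. Rises outnumbered falls in the longest class, 1197 (35.5%) against 1004 (29.7%). In the shortest, falls outnumbered rises, 928 (27.5%) against 842 (25%). Of all tested transcripts, 30.2% rose and 29.6% fell. Measured in each library, the longest class minus the shortest was -0.02 in both controls and 0.02 in both RNG140-GFP libraries, each relative to the mean of the 4. The groups do not overlap (exact permutation p = 0.333, the smallest possible). The difference of 0.05 on the log2 scale compares with a pooled within-group SD of 0.00102 between libraries. This SD rests on 2 libraries per group, in which single classes could differ more. The longest class alone stood at 0.0233 and 0.00658 in the RNG140-GFP libraries. With 1 library left out, the difference in median change lay between 0.0439 and 0.0547.

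Shares of the RNA pool also differed. The shortest class took 19.2% and 18.9% of the tested counts in controls but 17% and 16.4% with RNG140-GFP. The longest class took 25.2% in both controls but 27.1% and 27.3% with RNG140-GFP. Calls over 2-fold were made for between 6.13% and 7.91% of each length class (7.11% of all tested), a narrower range than across the level classes. Beyond the 1.5-fold minimum, 8.03%, 8.74%, 10.9%, 11.7% and 10.9% passed, from the shortest class to the longest (10.1% of all tested).

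Level and length were then combined. In the highest level class, the 1230 transcripts that were also in the shortest length class had a median change of -0.07. Of these 1230, 347 rose (28.2%) and 507 fell (41.2%), beside 30.2% and 29.6% of all tested. The 266 that were also in the longest class had a median of 0.05, with 118 rising (44.4%) and 90 falling (33.8%). In the lowest level class, the corresponding medians were -0.01 (453 short transcripts) and 0.00 (890 long transcripts). They were 0.076 (482 short) and 0.057 (869 long) in the second level class and 0.028 and 0.058 in the middle class. In the fourth class they were 0.0059 (672 short) and -0.0048 (582 long). The order of short and long transcripts was thus not the same in every level class. In the middle level class, rises outnumbered falls in all 5 length classes. They were 131 (24.4%) against 103 (19.2%) in the shortest and 313 (40.8%) against 221 (28.8%) in the longest.

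**Figure D2:**
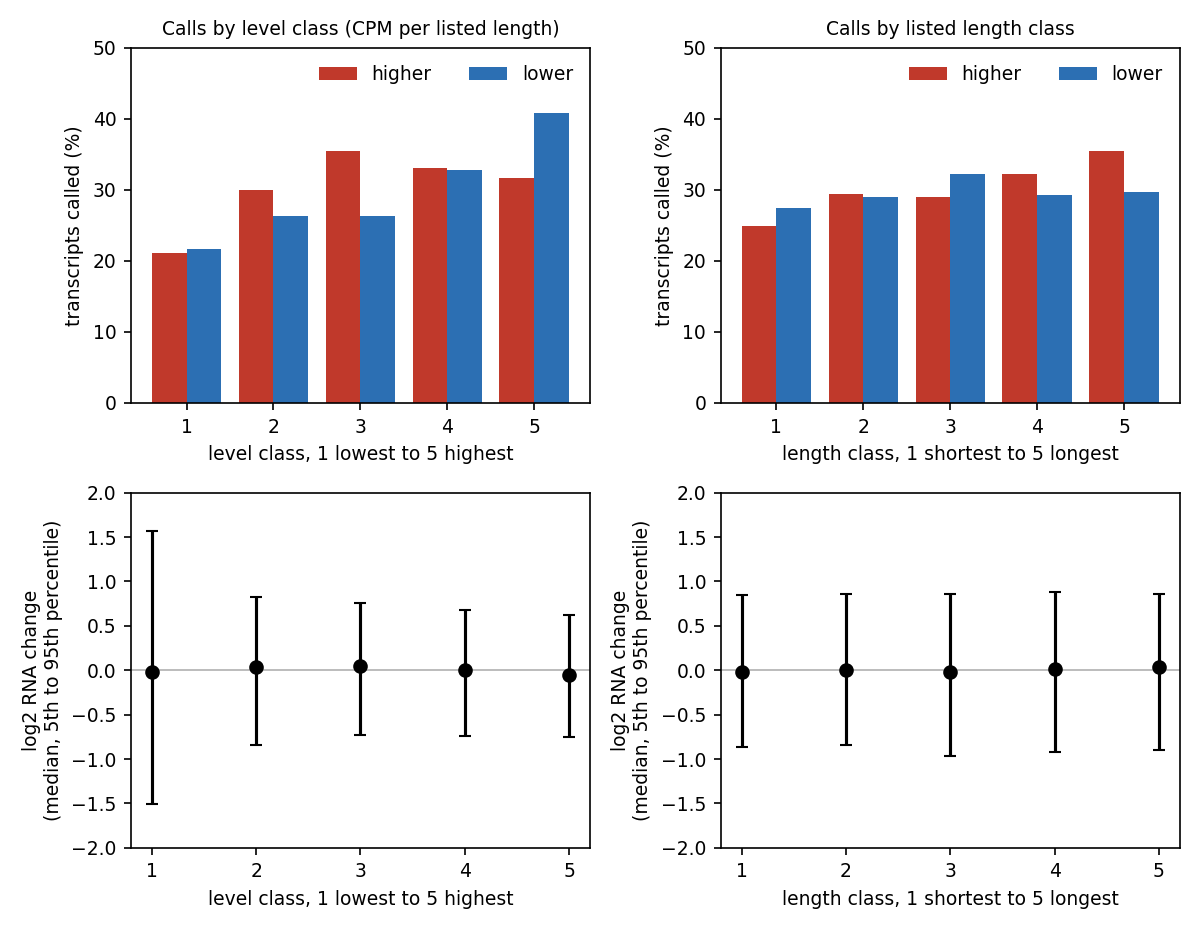
Top, percentage of transcripts called higher or lower in RNG140-GFP cells in 5 equal classes of level (mean CPM per listed length) and of listed length; bottom, the median log2 RNA change of each class with bars from the 5th to the 95th percentile. The bars of the lowest level class reach from -1.5 to 1.57 and those of the highest from -0.75 to 0.62, while the length classes differ little.

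Rises and falls were near-equal in number for transcripts with few or no footprints, as they were for all tested transcripts. Of the tested transcripts, 1296 did not pass the count filter in the footprint libraries. Among them 250 rose (19.3%, beside 30.2% of all tested) and 246 fell (19%, beside 29.6%). Together these were 38.3% (59.8% of all tested), and 27% were called over 2-fold (7.11% of all tested). They had a median of 0.876 CPM, against 26.4 CPM for the transcripts with footprints. Within the lowest of 5 classes of CPM, calls over 2-fold were made for 27.6% of the 1243 transcripts without enough footprints and for 14.5% of the 2131 with them. The former still had lower CPM (median 0.832 against 2.95) and larger standard errors (median 0.38 against 0.21). Against the 1.5-fold minimum, 15.5% and 12.5% passed.

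Of these transcripts, 71 had no footprint count in any library, and 11 of them rose (15.5%, beside 30.2% of all tested) while 15 fell (21.1%, beside 29.6%). The most abundant of the 71, of listed length 317, was counted 274 and 99 times in controls, and 52 and 65 times after RNG140-GFP expression. It was called lower by 1.32 ± 0.29 (SE), although its control libraries differed more from each other than the second control did from the RNG140-GFP libraries. The next, of listed length 191, was not called, with 94 and 105 control counts against 66 and 88. Another of the 71, of listed length 1382, went from 112 and 85 counts to 63 and 44, a fall by 0.56 ± 0.21 (SE).

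Among transcripts with a mean of at least 100 CPM, 26 rose and 20 fell by more than 2-fold, together 2.03% of 2268 (7.11% of all tested). A mean level lets a transcript in through the group where it is high, so the folds of rises and falls in this range cannot be set against each other. A pair of transcripts with equal counts, of listed length 104, stood at 9 and 4 counts in controls and 8211 and 6711 counts in RNG140-GFP cells (288 and 286 CPM). The following values are for called transcripts with at least 10 counts in every library and no overlap between groups, ranked by size of change. ENSCGRT00000001699, of listed length 909, held 2.63 and 2.26 CPM in controls (92 and 68 counts) and 579 and 594 CPM in RNG140-GFP cells. It rose by 7.9 ± 0.11 (SE) on the log2 scale, 238-fold (edgeR adjusted p = 3.01e-26). A second transcript with the next identifier number, of listed length 763, rose alike, from 2.61 and 2.26 CPM to 519 and 538 CPM. Its control counts were 91 and 68, so it may share reads with ENSCGRT00000001699. ENSCGRT00000023505, of listed length 92, came next with a rise of 39.9-fold and is described with its neighbour. A pair of transcripts with equal counts and a listed length of 91 went from 45.4 and 46.6 CPM to 299 and 313 CPM, a rise of 6.65-fold. A transcript of listed length 310 went from 65.3 and 69.3 CPM to 268 and 274 CPM, and 1 of listed length 324 from 99 and 104 CPM to 358 and 356 CPM. In each of these, libraries of the same group lay close together and the groups were far apart.

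The largest fall in this range was that of ENSCGRT00000024192, of listed length 628, from 197 and 203 CPM to 75.5 and 72.6 CPM. It fell by 1.43 ± 0.056 (SE) on the log2 scale, to 0.37 of the control level (edgeR adjusted p = 2.18e-15). Next came transcripts of listed lengths 1372 and 1314, at 149 and 145 CPM and at 152 and 149 CPM in controls. In RNG140-GFP cells they held 59.6 and 54.3 CPM and 61.2 and 56.1 CPM. Their counts were similar in each library, and they may share reads. Several short transcripts followed in which the RNG140-GFP libraries differed from each other. Of these, a transcript of listed length 134 went from 459 and 410 CPM to 193 and 156 CPM. Another, of listed length 121, went from 1092 and 980 CPM to 501 and 398 CPM, and 1 of listed length 94 from 287 and 254 CPM to 145 and 89.3 CPM. In these, the second RNG140-GFP library was the lowest of the 4. That the groups did not overlap was a condition of this ranking. A long transcript, of listed length 4287, showed no such gap, with 263 and 262 CPM in controls and 117 and 114 CPM with RNG140-GFP.

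Some transcripts of lower level were counted in 1 group alone. Of the tested transcripts, 20 had no count in either RNG140-GFP library and 3 had none in either control, and all of these passed the filter only through the other group. Among the 20, a transcript of listed length 1068 had 500 and 424 counts in controls. It was at least 246-fold lower, with 3 counts over the RNG140-GFP group as the floor, which covers counting error only. The transcript with the next identifier number had 497 and 421 control counts. Others of the 20 also had neighbours with near-equal counts that may share reads, so separate losses may be fewer. A transcript of listed length 145 had 437 and 380 control counts and was at least 218-fold lower on the same scale. Among the 3, a transcript of listed length 98 had 94 and 116 counts in RNG140-GFP cells and was at least 87.6-fold higher, with the same floor over the controls.

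**Figure D3:**
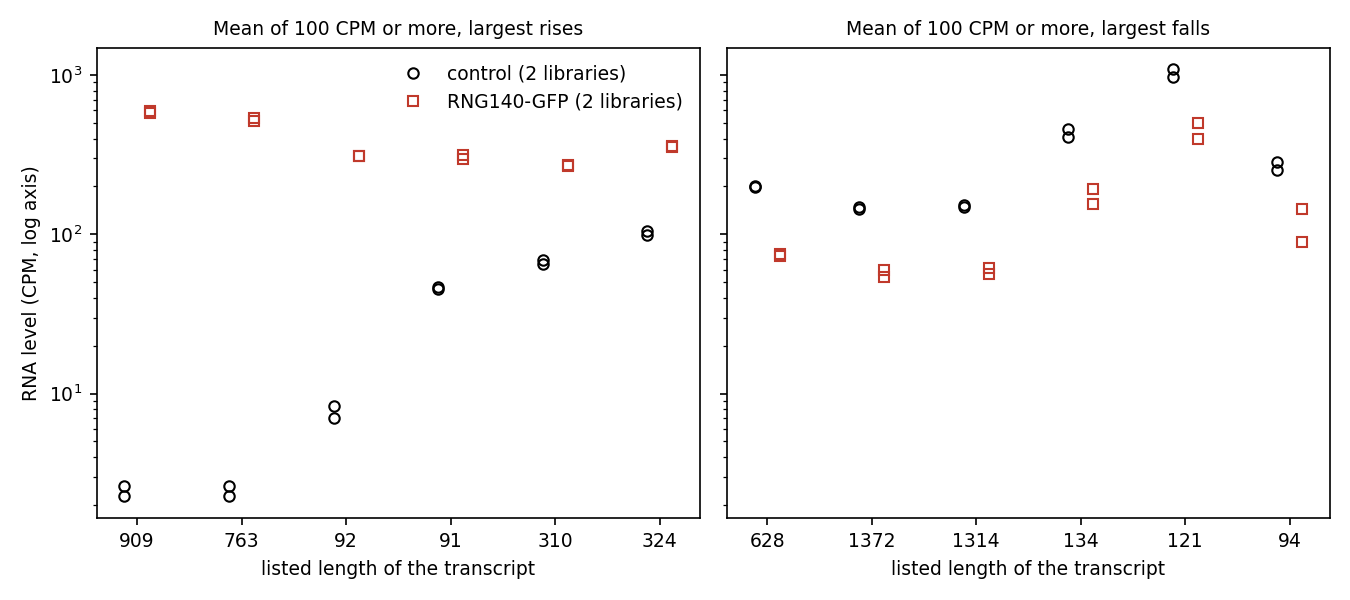
RNA level in CPM (log axis) in each of the 4 libraries for the 6 largest rises and 6 largest falls, by listed length. They were taken from called transcripts with a mean of at least 100 CPM, 10 counts in every library and no overlap between groups. Transcripts with equal counts are shown once. The rises span from 2.26 CPM in a control to 594 CPM in an RNG140-GFP library, and the largest fall is to 0.37 of the control level. A mean level lets a transcript in through the group where it is high, so the folds of the panels cannot be compared.

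Changes were next compared between transcripts with consecutive identifier numbers. Such neighbours can be isoforms of a gene, overlapping genes or unrelated genes, and the files do not say which. Some reads seem to be counted more than once, since 1161 tested transcripts had exactly the 4 RNA counts of another. After leaving out 533 pairs with equal counts, 11639 neighbouring pairs remained. When both members were called, 4015 pairs moved together and 1200 moved apart. Across pairs, the Spearman correlation of the members' changes was 0.40. The log2 ratio of the control replicates also correlated between neighbours, at 0.34, and that of the RNG140-GFP replicates at 0.32, and members that share reads share these deviations.

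This likeness ended within a few identifier numbers. The share of pairs moving in the same direction, among those with both members called, was 77% at a distance of 1, 62.3% at 2 and 53.3% at 3. At the tested distances from 4 to 200 it lay between 49% and 50.9%. Without pairs that fall into the same set of transcripts that appear to share reads, it was 67.2%, 58.5% and 52.1% at distances of 1 to 3. In these pairs the changes correlated by 0.26 at a distance of 1. The log2 ratios of the control replicates still correlated by 0.21 and those of the RNG140-GFP replicates by 0.19.

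Position in the deposited table divided the neighbouring pairs sharply. Of the 11639 pairs, 4323 were adjacent among the tested rows, and both members were called with the same sign in 2509 of them and with opposite signs in 3. Where the members lay over 100 tested rows apart (6689 pairs), 1170 pairs moved together and 1179 apart. In the 2144 adjacent pairs whose members were not in the same set, which can still share reads, 1103 moved together and 3 apart. The median difference in change between members was 0.02 on the log2 scale in adjacent pairs and 0.47 in pairs over 100 rows apart.

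Unequal change within a pair was tested as an interaction in edgeR, in which library scaling cancels. Reads counted in both members pull the difference towards none. It was called for 2572 of 11639 pairs (22.1%), and for 965 (8.29%) with a difference over 2-fold. Of the called pairs, 35 were among the 4323 adjacent ones and 2489 among those over 100 rows apart. Both members were called in opposite directions in 989 of the 2572 and in the same direction with unequal size in 328. The longer member was the relatively higher one in RNG140-GFP cells in 50.4% of 2567 called pairs of unequal length, near the 49.9% over all 11511 such pairs. The count depended on single libraries: without control replicate 1 or 2, edgeR called 0 pairs (3096 and 3234 at an unadjusted p under 0.05) and limma called 0 as well. Leaving out RNG140-GFP replicate 1 or 2, edgeR called 1085 or 1068 pairs. Among the 9229 pairs whose members were not in the same set, edgeR called 3577, and between 2244 and 2863 with 1 library left out.

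The largest difference between neighbours called in opposite directions was that of ENSCGRT00000023504 and ENSCGRT00000023505, of listed lengths 338 and 92. The first held 59.3 and 66.1 CPM in controls and 39.8 and 45.4 CPM in RNG140-GFP cells, a fall by 0.56 ± 0.073 (SE; edgeR adjusted p = 7.09e-07). The second went from 8.36 and 7.06 CPM to 310 and 309 CPM, a log2 change of 5.32 ± 0.076 (SE; edgeR adjusted p = 2.8e-24). The first thus took 87.6% and 90.3% of the pair's counts in controls but 11.4% and 12.8% with RNG140-GFP. The difference in change was -5.88 ± 0.15 (SE; edgeR interaction, adjusted p = 0.00617). Without control replicate 1 the adjusted p of this edgeR interaction was 0.0752 (difference -6.09), and without control replicate 2 it was 0.0701 (-5.69). The members are not adjacent in the deposited table.

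In all, 615 pairs qualified under the same rule, and the 15 with the largest differences were not adjacent in the table. In a pair of listed lengths 988 and 746, the first went from 45.1 and 50.7 CPM to 1.79 and 2 CPM, while the second went from 94.6 and 99.3 CPM to 110.0 and 120.4 CPM. In a pair of listed lengths 639 and 1476, the first rose from 13.3 and 12.7 CPM to 29.1 and 28.7 CPM and the second fell from 24.9 and 27 CPM to 8.88 and 10.3 CPM. In both pairs the libraries of each group lay close together. Over all pairs more than 100 rows apart, members moved together in 1170 and apart in 1179.

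Adjacent neighbours with unequal change were few, and their differences were mostly small, with a median of 0.26 on the log2 scale among the 35. Reads shared between members pull such differences towards none, and many adjacent pairs appear to share reads. Of the 2144 adjacent pairs whose members were not in the same set, which can still share reads, 33 were called (1.54%). The largest difference in adjacent pairs was between transcripts of listed lengths 597 and 165. The former went from 267 and 264 CPM to 217 and 246 CPM, and the latter from 39.6 in both controls to 14.2 and 12.3 CPM. Both fell, by 0.2 ± 0.059 and 1.57 ± 0.087 (SE), with a difference of 1.36 ± 0.13 (SE; edgeR interaction, adjusted p = 0.0185). This pair belongs to the 13 tested transcripts with the lowest identifier numbers, of which 11 fell (29.6% of all tested fell) and 1 rose (30.2% of all tested rose), with a median log2 change of -0.43. In a pair of listed lengths 223 and 168, the longer member fell from 652 and 631 CPM to 516 and 518 CPM. The shorter rose from 13.9 and 14.8 CPM to 20.4 and 20.6 CPM. The longer held 97.9% and 97.7% of the pair's counts in controls and 96.2% in both RNG140-GFP libraries. In another adjacent pair, of listed lengths 1037 and 543, the longer rose from 18.5 CPM in both controls to 26.7 and 27.2 CPM, and the shorter stood between 20.2 and 22 CPM in all 4 libraries.

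**Figure D4:**
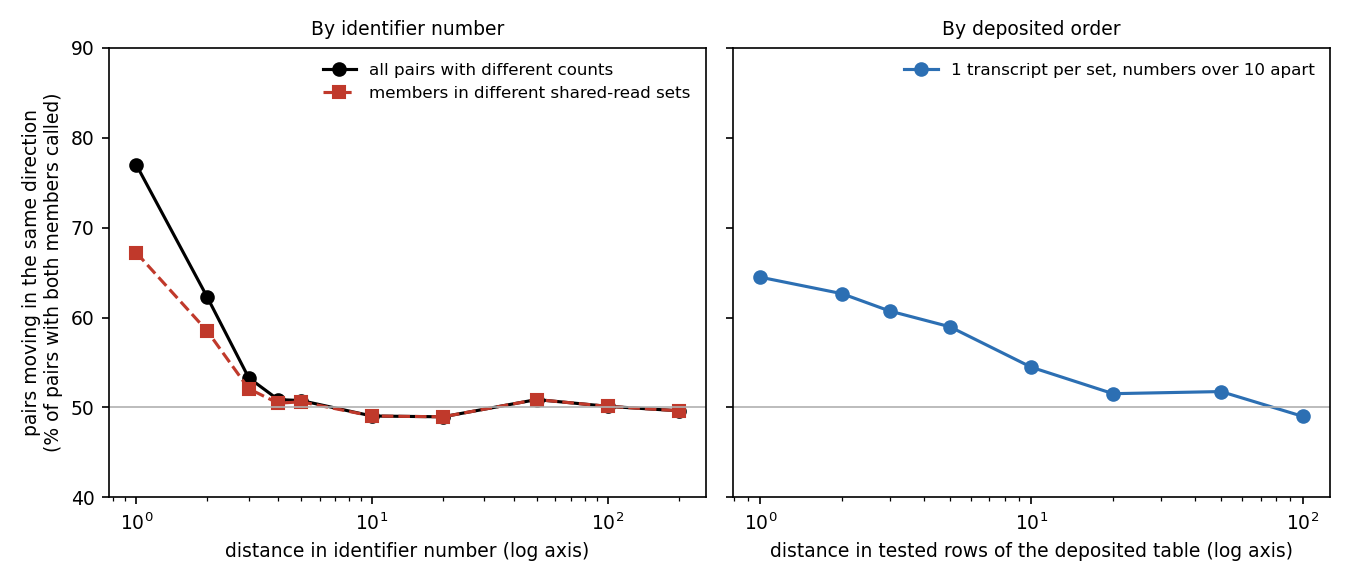
Percentage of transcript pairs that moved in the same direction, among pairs with both members called, against the distance in identifier number (left) and in tested rows of the deposited table (right; 1 transcript per set that appears to share reads, identifier numbers over 10 apart), both on log axes. On the left the percentage reaches 50.9% by a distance of 4, and on the right it is 64.5% at 1 row and 51.5% at 20 rows.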

How the data were processed

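For each library the authors deposited a table without a header: transcript identifiers, lengths and raw read counts, not normalized. Per the labels' protocols, library preparation used TruSeq stranded mRNA reagents. The submitters' processing notes list CASAVA 1.8, TopHat2 2.0.9 and Bowtie2 2.1.0. Build, annotation and counter: not given in the sources used here. The deposited length has no stated unit and a lowest value of -9, and was used to rank transcripts and to scale levels.

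The 4 RNA libraries' counts entered edgeR 4.0.16 (R 4.3.3; filterByExpr, minimum count 10; TMM scaling; quasi-likelihood test with 2 residual degrees of freedom; Benjamini-Hochberg 0.05; glmTreat for the 1.5-fold minimum). CPM values use TMM-scaled library sizes. Standard errors are the log2 change over the root of F, for single transcripts never below counting error. Ratios of single libraries are log2 CPM with a prior count of 2. For neighbouring pairs, a model of library, member and member by group was fitted to 8 columns per pair. Sets that appear to share reads join transcripts with equal RNA counts, or consecutive numbers whose counts differ by at most 1.1 times in each library; they left 13889 sets. Named transcripts were the largest called rise and fall at a mean of 100 CPM or more, and the pair with opposite calls at 10 CPM or more that differed most, with at least 10 counts in every library and, for single transcripts, no overlap of groups. Other transcripts given by listed length come from the same rankings or were chosen after their values were seen. Deposited rows were compared after the data were seen. No gene lists or sequences were used, for want of gene names. The comparison, its classes and rules were chosen with earlier results of these data known. On simulated data for 16873 transcripts changes of 1.5-fold were recovered by the RNA test in 79.1% of cases, changes of 2-fold in 98.5% and of 4-fold in 100%. For 12172 pairs simulated without shared reads, the pair test gave 69.7%, 96% and 100%. The simulation drew counts at the fitted trend of the spread, with no spread particular to a transcript or pair, and changed few transcripts. These shares therefore do not say how many differences the tests find in the real data, least of all for pairs, where calls vanished without either control library. Alternatives were scaling, filters, DESeq2 1.42.0, limma 3.58.1, blocks and libraries left out.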

Additional observations from a re-analysis of the deposited data

How the results depend on the processing

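Among called transcripts that an alternative also called, 0 had the opposite direction there. Calls lay between 8327 and 9843 with 1 library left out (4121 to 4953 higher, 4206 to 4890 lower), and 8470 transcripts were called in DESeq2, where the 1.5-fold minimum left 869 in place of 1697 (1318 to 1706 with 1 library left out). The numbers in the titles are not said to pair libraries, and same-numbered libraries deviated together by r = 0.07; a replicate block gave 10859 transcripts and 2239 pairs. The longest minus the shortest length class, 0.05, became 0.06 at a minimum count of 50 (0.0594) and without a filter (0.0583), 0.0423 with 1 transcript per set and 0.0764 with 10 classes, and lay between 0.0439 and 0.0547 with 1 library left out. The highest minus the lowest level class, -0.04, became -0.0768 at a minimum count of 50 and reversed to 0.044 without a filter, with a range of -0.0649 to 0.0172 with 1 library left out; the cause was not tested. Pairs called fell from 2572 to 496 at an adjusted p under 0.01 and to 1550 among 6854 disjoint pairs, where fewer were tested, and to between 0 and 1085 with 1 library left out. Of transcripts of at least 1000 CPM, 61 to 69 were lower and 4 to 8 higher with 1 library left out, and 5 were higher in DESeq2 and 5 with all 8 libraries in the fit. Upper-quartile and RLE scaling moved the median of all transcripts by less than 0.01. Among transcripts under 1 CPM, with a median standard error of 0.45, small changes were not detectable.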

Other observations

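The order of rows in the deposited tables carried likeness in RNA change that the identifier numbers did not. Taking 1 transcript per set that appears to share reads, and only pairs whose identifier numbers were over 10 apart, the share of pairs moving in the same direction among those with both members called was 64.5% at 1 tested row apart (2613 of 4052). It was 62.7% at 2 rows, 60.7% at 3, 59% at 5, 54.5% at 10 and 51.5% at 20. The Spearman correlation of the changes went from 0.21 at 1 row (11440 pairs) to 0.05 at 10 rows (13857 pairs) and 0.01 at 20. At 1 row, the log2 ratio of the control replicates correlated by 0.04 and that of the RNG140-GFP replicates by 0.08. These pairs share libraries and can share reads, and what the row order stands for is not given in the sources used here.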
